A study of Mus musculus with 24 samples.

Results

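The snoRNA host transcripts are spliced non-coding RNAs whose introns hold small nucleolar RNAs (snoRNAs). They were chosen by name as Snhg1, Snhg3, Snhg5, Snhg6, Snhg8, Snhg12, Snhg15, Snhg17 and Gas5, which makes 9 genes. Of these, 7 had values among the 15390 genes of the table, and Snhg1 and Snhg8 were not analysed here. All 7 were among the 13272 genes that passed a filter on low values (4 or more libraries at a log2 value of 0 or higher). The GENCODE M21 annotation of the mouse build GRCm38 places 31 snoRNA genes inside the 9 hosts on the same strand. All 31 had values and 28 passed the filter, 20 of them inside the 7 hosts with values.

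MC38 cells, a mouse colon carcinoma line, carried Ado gRNA 1 or Ado gRNA 2 (genotype labelled Ado KO) or Control gRNA 1 or Control gRNA 2 (genotype labelled control). Ado encodes a thiol dioxygenase. The 4 guide populations were sampled without treatment and after 1 h or 6 h with TNF, an inflammatory cytokine, and 3′ tag libraries were made from total RNA with an oligo-dT primed kit. Genotype and treatment made 6 groups with 4 libraries in each, 2 from each guide population. Nothing in the labels says that these came from separate cultures, so p-values measure only the spread between libraries, which may be technical. Libraries are named by guide and replicate, so that 2-1 is replicate 1 of guide 2. Whether the guide populations were clones or pools, and the TNF dose, were not stated.

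A snoRNA host is transcribed by RNA polymerase II and spliced, and the snoRNA is trimmed out of the excised intron while its own proteins protect it. Box C/D snoRNAs guide ribose methylation of ribosomal RNA, and box H/ACA snoRNAs guide its pseudouridylation, both in the nucleolus. The spliced host keeps no long reading frame; several hosts start with a terminal oligopyrimidine tract like that of ribosomal protein genes, and are removed by nonsense-mediated decay once ribosomes reach them. The spliced host and its snoRNAs can therefore differ in level although 1 precursor gives rise to both.

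Values are log2 CPM (tag counts scaled to a common library total) as the authors normalised them, and a difference of 1 is a doubling. Each library had 617 to 1013 genes at the shared lowest value of -3.35, where differences carry little precision. Ado itself read 5.00 to 5.53 in Ado KO libraries and 5.01 to 5.37 in control libraries. A 3′ tag need not cover the targeted site, whose position was not given, so this level checks neither the edit nor the labels. Of 9 NF-kB response genes, 9 were called higher at 6 h in Ado KO cells and 9 in control cells. The mesenchymal gene Vim read 10.3 to 10.7, while the epithelial markers Krt8, Krt18 and Cdh1 reached at most 1.03, 0.64 and 0.08. The immune marker Ptprc read -0.06 to 3.75, and its part in the results was not tested. All snoRNA genes of the table, whether or not they passed the filter, took 0.551% to 0.642% of the signal in Ado KO cells at 6 h. In control cells at 6 h they took 0.815% to 1.13%. Untreated, the share was 0.213% to 0.305% in Ado KO cells and 0.186% to 0.222% in control cells. In bulk RNA, fewer expressing cells and less RNA per cell cannot be told apart.

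After 6 h of TNF some of the host transcripts rose. Of the 7 hosts 3 rose in Ado KO cells (Snhg12, Snhg15 and Snhg17), beside 4.42% of all genes tested that were called higher there. In control cells 6 of the 7 rose (Snhg3, Snhg5, Snhg12, Snhg15, Snhg17 and Gas5), against 7.74% of all genes tested. In both genotypes 0 hosts were called lower, beside 268 of all 13272 genes in Ado KO cells and 1365 in control cells. At an unadjusted limma p under 0.05 also 0 hosts were lower. The share of all genes at that threshold was not computed. The median change of the 7 hosts was 0.44 in Ado KO cells and 1.21 in control cells on the log2 scale, beside medians over all genes tested of -0.05 in Ado KO cells and -0.09 in control cells. Both medians of the hosts are the value of Snhg6, which had an SE of 0.55 and was called in neither genotype. Calls here and below are limma's, two-sided, with a threshold of 0.05 on the Benjamini-Hochberg adjusted p across the 13272 genes. Where libraries are said not to overlap, this describes single genes, and the share of all genes was not counted.

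Snhg17 (chr2:158353700-158361580, minus strand) moved most in both genotypes. In Ado KO cells it read 5.58, 5.43, 5.51 and 5.60 at 6 h, against 3.91, 3.84, 4.93 and 4.50 untreated (libraries 1-1, 1-2, 2-1 and 2-2). Control cells gave 6.80, 6.64, 6.37 and 6.20 at 6 h, against 3.55, 3.15, 4.00 and 3.71 untreated. The 6 h and untreated libraries did not overlap in either genotype, and the guide 2 libraries of untreated Ado KO cells stood above all other untreated libraries. The log2 change was 1.23 ± 0.20 (SE, n = 4 each; limma adjusted p = 3.59e-05) in Ado KO cells, a 2.35-fold rise. The control change was 2.90 ± 0.20 (limma adjusted p = 4.15e-13), a 7.46-fold rise.

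Snhg12 (chr4:132308623-132311024, plus strand), a host of 4 annotated snoRNAs, was also called in both genotypes. Ado KO cells had 6.12, 6.06, 5.99 and 5.86 at 6 h, against 4.86, 4.87, 5.33 and 5.29 untreated. Control libraries read 6.65, 6.55, 6.71 and 6.52 at 6 h, against 4.56, 4.61, 4.74 and 4.47 untreated. All 6 h libraries lay above all untreated ones in both genotypes. The log2 change was 0.92 ± 0.11 (limma adjusted p = 1.04e-07) in Ado KO cells and 2.01 ± 0.11 (limma adjusted p = 7.03e-16) in control cells. These are rises of 1.89-fold and 4.03-fold.

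Snhg15 (chr11:6525591-6528760, minus strand), which holds 1 annotated snoRNA, followed the same course. Ado KO libraries read 6.56, 6.25, 6.51 and 6.35 at 6 h, against 5.18, 5.18, 6.01 and 5.77 untreated. Control cells held 7.14, 6.78, 6.87 and 6.73 at 6 h, against 5.00, 5.38, 5.43 and 5.26 untreated. Here too no 6 h library fell among the untreated ones. The log2 change was 0.88 ± 0.16 (limma adjusted p = 0.000274) in Ado KO cells and 1.61 ± 0.16 (limma adjusted p = 3.95e-09) in control cells.

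The Ado KO changes differed between the guides. With Ado guide 1 the 6 h change was 1.63 for Snhg17, 1.22 for Snhg12 and 1.22 for Snhg15, and with Ado guide 2 it was 0.84, 0.62 and 0.54 for these genes in that order (n = 2 libraries per mean). At 6 h the means of the guides were close: Snhg17 read 5.51 with Ado guide 1 and 5.55 with Ado guide 2. Untreated, they were 3.88 with Ado guide 1 and 4.72 with Ado guide 2. With control guides 1 and 2 the 6 h change of Snhg17 was 3.36 and 2.43, and that of Snhg12 was 2.02 and 2.01. Without the Ado guide 1 libraries only 1 of the 7 hosts, Snhg12, was called in Ado KO cells; Snhg15 then had a limma adjusted p of 0.203 and Snhg17 of 0.0897. Over all alternatives other than leaving out single libraries, these adjusted p-values ran between 2.67e-07 and 0.203 for Snhg15 and between 1.01e-07 and 0.0897 for Snhg17.

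**Figure D1:**
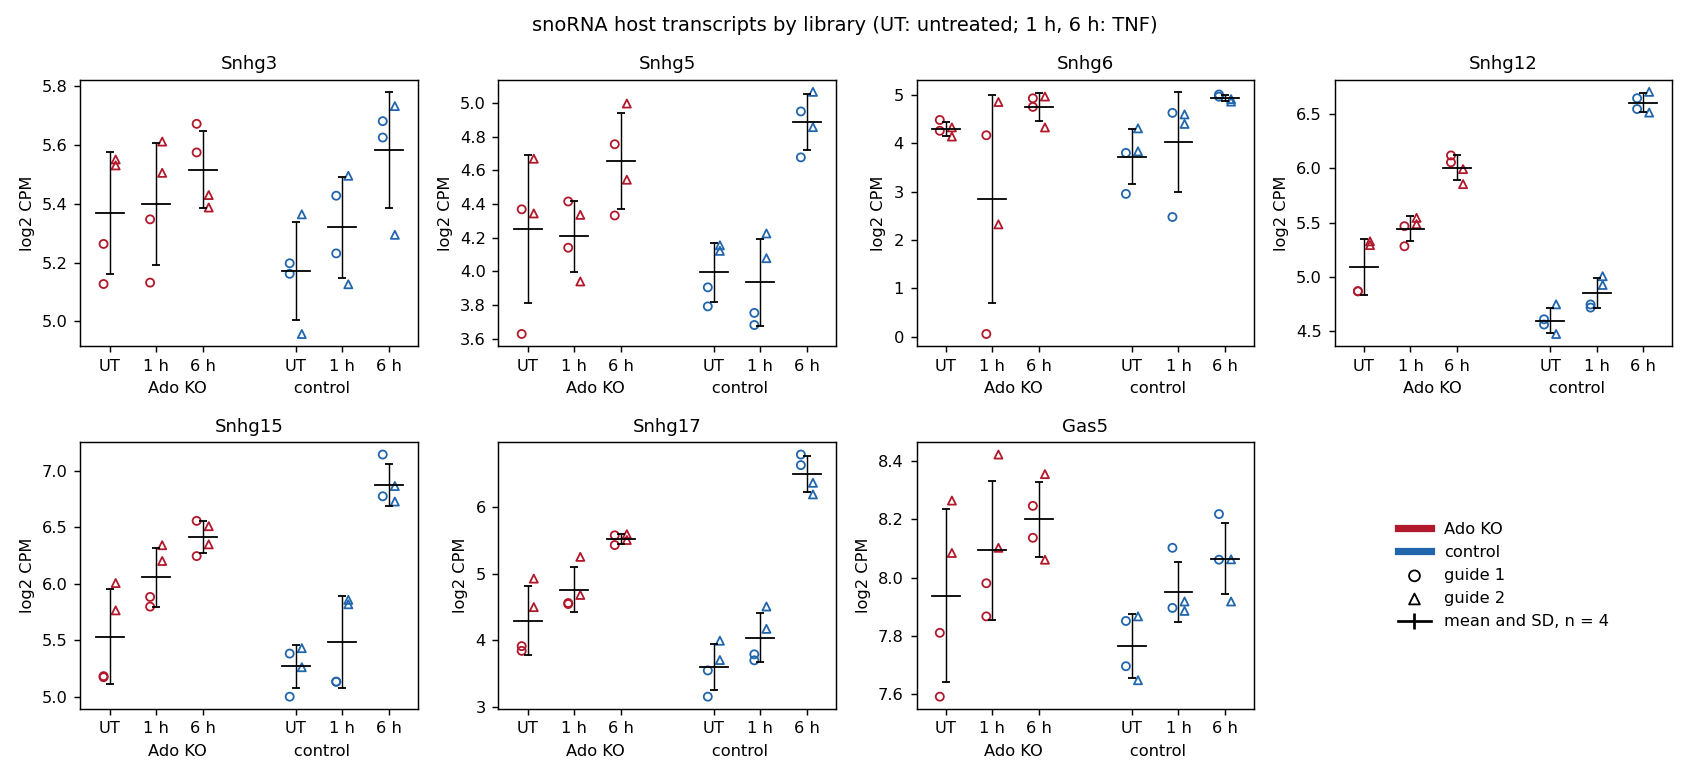
log2 CPM of the 7 host transcripts in each library, Ado KO (red) left of control (blue), by treatment; circles are guide 1, triangles guide 2, bars the mean and SD of 4 libraries. Snhg12, Snhg15 and Snhg17 climb at 6 h in both genotypes and end higher in control cells, while Gas5 spans only 7.59 to 8.42. The 6 h difference between genotypes was called for Snhg12 and Snhg17 and not for Snhg15.

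The other hosts moved less. Snhg5 (chr9:88521050-88522929, minus strand) read 4.75, 4.33, 5.00 and 4.54 at 6 h in Ado KO cells, against 4.37, 3.63, 4.67 and 4.34 untreated, and these overlap. The control values were 4.95, 4.68, 5.07 and 4.86 at 6 h, against 3.79, 3.91, 4.16 and 4.12 untreated, with no overlap. The log2 change was 0.40 ± 0.17 (limma adjusted p = 0.184) in Ado KO cells and 0.89 ± 0.17 (limma adjusted p = 0.000272) in control cells.

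Gas5 (chr1:161034422-161038539, plus strand), first known as a gene whose RNA builds up in growth-arrested cells, carries 9 annotated snoRNAs, the most of the 9 hosts. It read 8.14, 8.25, 8.36 and 8.06 at 6 h in Ado KO cells, against 7.81, 7.59, 8.26 and 8.08 untreated. Control libraries gave 8.22, 8.06, 8.06 and 7.92 at 6 h, against 7.70, 7.85, 7.87 and 7.65 untreated. The Ado KO groups overlapped, and the control groups were separate by a small margin. The log2 change was 0.26 ± 0.11 (limma adjusted p = 0.162) in Ado KO cells and 0.30 ± 0.11 (limma adjusted p = 0.0464) in control cells. The control call was lost without untreated library 1-1, 1-2 or 2-2 or 6 h library 1-1, 1-2 or 2-1, with limma adjusted p-values up to 0.158 and changes of 0.25 to 0.35 over the 8 omissions. It was also lost without control guide 1 (limma adjusted p = 0.505) and without control guide 2 (limma adjusted p = 0.175). Without the filter, the block or the variance trend it was lost too (limma adjusted p = 0.0513, 0.0609 and 0.110). The range was 0.0107 to 0.505 over the alternatives other than single omissions. In Ado KO cells the change was called without untreated library 2-1 (0.36, limma adjusted p = 0.0374) and not without any other library. It was also called without Ado guide 2 (0.49, limma adjusted p = 0.00784) and with guide populations as fixed terms (limma adjusted p = 0.0498), within a range of 0.00784 to 0.963 over the alternatives other than single omissions. The mean change was 0.49 with Ado guide 1 and 0.03 with Ado guide 2.

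Snhg3 (chr4:132348014-132353686, minus strand) lies inside the gene Rcc1 on the same strand, so tags of the 2 genes may have been split and its values are uncertain. It read 5.67, 5.57, 5.43 and 5.39 at 6 h in Ado KO cells, against 5.13, 5.26, 5.55 and 5.53 untreated. The control libraries read 5.63, 5.68, 5.73 and 5.29 at 6 h, against 5.20, 5.16, 5.36 and 4.96 untreated. Groups overlapped in both genotypes. The log2 change was 0.15 ± 0.12 (limma adjusted p = 0.590) in Ado KO cells, with 0.43 for Ado guide 1 and -0.13 for Ado guide 2. The control change was 0.41 ± 0.12 (limma adjusted p = 0.0169), and this call was lost without untreated library 2-2 or 6 h library 1-2 or 2-1, with a limma adjusted p of at most 0.0725. Without control guide 1 or control guide 2 the limma adjusted p of Snhg3 was 0.332 or 0.0610, so that 4 of 7 hosts were called in control cells in either case.

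Snhg6 (chr1:9941959-9944118, minus strand) had the widest spread of the hosts. At 6 h it read 4.75, 4.93, 4.97 and 4.33 in Ado KO cells, against 4.48, 4.26, 4.33 and 4.14 untreated, and in control cells 5.01, 4.97, 4.92 and 4.86 at 6 h, against 2.95, 3.80, 4.31 and 3.83 untreated. The control libraries were all higher at 6 h. After 1 h, single libraries stood far below their group: 0.05 and 2.32 in Ado KO libraries 1-2 and 2-1, and 2.47 in control library 1-2. The 6 h change was 0.44 ± 0.55 (limma adjusted p = 0.753) in Ado KO cells and 1.21 ± 0.55 (limma adjusted p = 0.127) in control cells, neither past the threshold.

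After 1 h of TNF no host passed the threshold in either genotype, where 0.256% of all genes did in Ado KO cells and 0.392% in control cells. At an unadjusted limma p under 0.05, 4 of 7 hosts passed in Ado KO cells, beside 7.26% of all genes, and 2 of 7 in control cells, beside 14.1%. Those in Ado KO cells were Snhg12 at 0.36 ± 0.11, Snhg15 at 0.52 ± 0.16, Snhg17 at 0.47 ± 0.20 and, downwards, Snhg6 at -1.45 ± 0.55. In control cells they were Snhg12 at 0.25 ± 0.11 and Snhg17 at 0.44 ± 0.20. With the guide populations as fixed terms Snhg15 was called in Ado KO cells (limma adjusted p = 0.00743). The 28 tested carried snoRNAs gave 0 calls at 1 h in either genotype, with 8 at an unadjusted limma p under 0.05 in Ado KO cells and 3 in control cells.

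Set against 1 h, the 6 h libraries showed rises of 3 of 7 hosts in Ado KO cells, beside 4.05% of all genes, and of 4 of 7 in control cells, beside 4.82%. In Ado KO cells Snhg12 rose by 0.56 ± 0.11 (limma adjusted p = 0.000471), Snhg17 by 0.77 ± 0.20 (limma adjusted p = 0.0118) and Snhg6 by 1.90 ± 0.55 (limma adjusted p = 0.0283). The Snhg6 value leaned on the 2 low 1 h libraries: it was 0.95 without Ado KO library 1-2 at 1 h (limma adjusted p = 0.181). It also lost its call without 1 h library 2-1 or 6 h library 1-1, 1-2 or 2-1, with limma adjusted p-values over single omissions of 0.000926 to 0.181. Without the Ado guide 1 libraries 0 of 7 were called here. In control cells Snhg17 rose by 2.46 ± 0.20 (limma adjusted p = 3.08e-11), Snhg12 by 1.76 ± 0.11 (limma adjusted p = 2.93e-14), Snhg15 by 1.39 ± 0.16 (limma adjusted p = 1.14e-07) and Snhg5 by 0.95 ± 0.17 (limma adjusted p = 0.000144). The Snhg5 call ended without control guide 1, at 0.81 (limma adjusted p = 0.0636).

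Untreated and at 1 h, Ado KO cells had more Snhg12 than control cells, and at 6 h less. Untreated, Snhg12 averaged 5.09 ± 0.26 in Ado KO cells and 4.59 ± 0.11 in control cells (SD, n = 4 each), a difference of 0.49 ± 0.11 (SE; limma adjusted p = 0.0464). It was the 1 host of 7 called higher there, beside 0.0678% of all genes. The call was lost without Ado KO library 2-1 or 2-2 or control library 1-1, 1-2 or 2-2, with limma adjusted p-values of 0.0313 to 0.170 over the 8 omissions. The difference was 0.27 without Ado guide 2 (limma adjusted p = 0.608) and 0.71 without Ado guide 1. It was 0.48 without control guide 1 (limma adjusted p = 0.138) and 0.51 without control guide 2 (limma adjusted p = 0.0598). The Snhg12 call was lost in each of these cases but that without Ado guide 1. Without control guide 2 Snhg17 was called instead, at 0.95 (limma adjusted p = 0.0387). After 1 h Snhg12 averaged 5.44 ± 0.11 in Ado KO cells and 4.85 ± 0.14 in control cells, a difference of 0.60 ± 0.11 (limma adjusted p = 0.00438), and it was again the only host of 7 called higher, beside 0.527% of all genes. Without control guide 1 that difference was 0.48 (limma adjusted p = 0.0973). Without control library 2-1 Snhg15 (0.68) and Snhg17 (0.87) were called as well, and without control library 2-2 Snhg15 (0.69), so that the count was 3 and 2. Without Ado KO library 2-2 Snhg6 was called lower there, at -1.85 (limma adjusted p = 0.0497).

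At 6 h 2 of the 7 hosts were lower in Ado KO cells, beside 0.595% of all genes. Snhg12 averaged 6.01 ± 0.11 in Ado KO cells and 6.61 ± 0.09 in control cells (SD, n = 4 each), a difference of -0.60 ± 0.11 (SE; limma adjusted p = 0.00311). Snhg17 averaged 5.53 ± 0.07 in Ado KO cells and 6.50 ± 0.27 in control cells, a difference of -0.97 ± 0.21 (limma adjusted p = 0.0131). In these genes, and in Snhg15 at -0.46 ± 0.17 (limma adjusted p = 0.240), all 4 Ado KO libraries lay below all 4 control libraries. The share of all genes whose libraries separate in this way was not counted, so this is a description and not support. With guide populations as fixed terms Snhg15 was called lower too (limma adjusted p = 0.00829, in a range of 0.00829 to 0.473 over the alternatives other than single omissions), which made 3 hosts. Snhg17 lost its call without Ado KO library 2-1, control library 1-1 or control library 1-2, with limma adjusted p-values of 0.00728 to 0.0816 over the 8 omissions, and the count of hosts was then 1. Without Ado guide 2 neither host was called at 6 h, at -0.52 for Snhg12 (limma adjusted p = 0.0874) and -0.99 for Snhg17 (limma adjusted p = 0.0574). Over the alternatives other than single omissions the adjusted p ran between 9.77e-05 and 0.0874 for Snhg12 and between 3.6e-05 and 0.120 for Snhg17. Gas5, at 0.13 ± 0.11, and Snhg3, at -0.07 ± 0.13, had limma adjusted p-values of 0.728 and 0.911.

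The genotype difference in the TNF response, the change in Ado KO cells minus the change in control cells, was tested as an interaction term. At 6 h it was called, with a smaller rise in Ado KO cells, for 2 of 7 hosts, beside 0.347% of all genes tested, which is 46 genes, 40 of them small non-coding RNAs. It was -1.67 for Snhg17 (95% interval -2.23 to -1.10; limma adjusted p = 0.00118) and -1.09 for Snhg12 (95% interval -1.40 to -0.79; limma adjusted p = 0.000138). Snhg15 stood at -0.72 (95% interval -1.19 to -0.26; limma adjusted p = 0.349), and was called only with the guide populations as fixed terms (limma adjusted p = 0.0063). Snhg6 had -0.77 ± 0.78, Snhg5 -0.49 ± 0.24, Snhg3 -0.27 ± 0.17 and Gas5 -0.04 ± 0.15, with limma adjusted p-values of 0.742 to 0.982. For Gas5 the 95% interval ran between -0.34 and 0.27. At 1 h the term was called for 0% of all genes and for 0 of 7 hosts; at an unadjusted limma p under 0.05 it passed for 9.83% of all genes and for 1 host, Snhg6, at -1.76 ± 0.78.

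Both calls depended on which guide populations entered. Leaving out any 1 of 16 libraries kept both, at -1.81 to -1.46 for Snhg17 and -1.16 to -1.02 for Snhg12. Without Ado guide 2 neither passed, at -1.27 for Snhg17 (limma adjusted p = 0.217) and -0.79 for Snhg12 (limma adjusted p = 0.148). Without control guide 1 Snhg17 was at -1.20 (limma adjusted p = 0.300) and Snhg12 was still called. The adjusted p over the alternatives other than single omissions ran between 3.74e-06 and 0.300 for Snhg17 and between 3.74e-06 and 0.148 for Snhg12. The sign was the same in all of them.

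**Figure D2:**
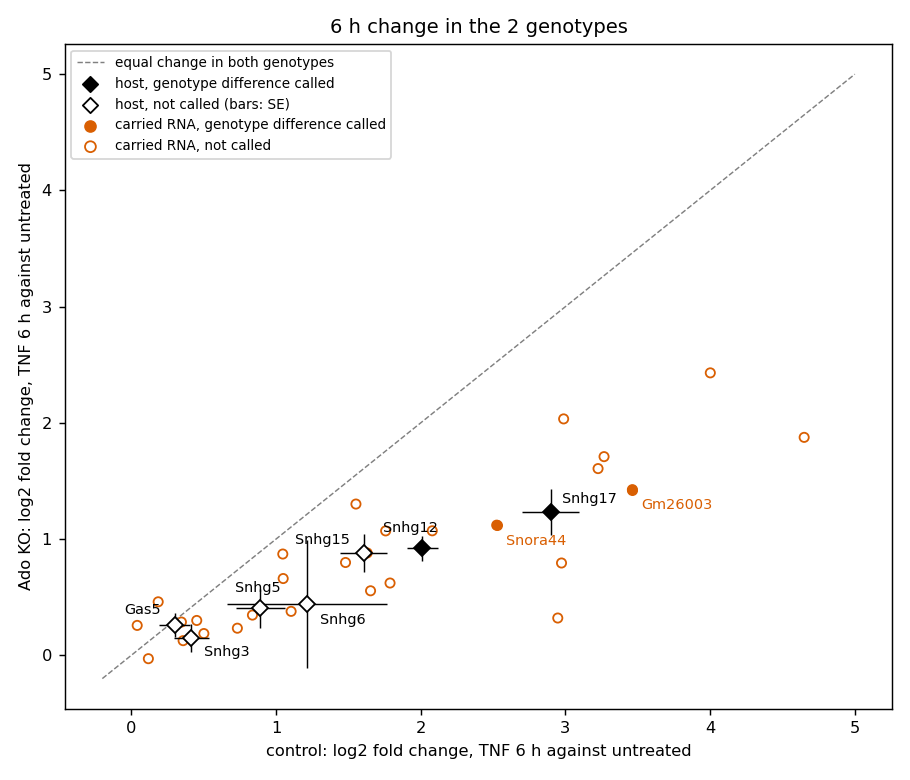
Log2 change at 6 h of TNF in Ado KO cells (vertical) against that in control cells (horizontal) for hosts (diamonds, bars are SE) and carried snoRNAs (circles); filled symbols have a called genotype difference and the dashed line is an equal change. Most points lie below the line, with Snhg17, Snhg12, Snora44 and Gm26003 called.

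The snoRNAs inside these hosts were then set beside them. A mature snoRNA has no poly(A) tail, and the libraries were primed on such tails. What part of the tags came from mature snoRNAs, from adenylated or unprocessed forms, or from unspliced host RNA was not tested. Of the 28 tested snoRNAs 24 would have passed the filter on untreated and 1 h libraries alone, and 4 needed their 6 h values to pass: Snora16a and Snord99 of Snhg12, and Gm22489 and Snord47 of Gas5. Snora16a, Gm22489 and Snord47 reached the filter's value mainly or only where they were high, so their calls at 6 h are descriptions and not support. Of the 28, 10 were called higher at 6 h in Ado KO cells, beside 4.42% of all genes tested. In control cells 19 of the 28 were called higher, beside 7.74% of all genes tested. In both genotypes 0 of the 28 were called lower, beside 268 of all 13272 genes in Ado KO cells and 1365 in control cells. At an unadjusted limma p under 0.05 also 0 of the 28 were lower. The share of all genes at that threshold was not computed. Their median change was 0.73 in Ado KO cells and 1.59 in control cells, beside 1.10 and 2.06 for all 228 tested snoRNA genes in the same order. Over the other 24 alone, an alternative chosen after seeing the data, 9 were called in Ado KO cells and 17 in control cells, with medians of 0.64 in Ado KO cells and 1.52 in control cells. Leaving out single libraries kept 6 of the 10 Ado KO calls and 14 of the 19 control calls in every case. The count of calls in Ado KO cells was 6 without untreated library 1-1 or 6 h library 1-1. It was 1 without Ado guide 1, and in control cells it was 12 without control guide 1.

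Snhg17 holds 3 annotated H/ACA snoRNA genes of related sequence, of which Gm24411 did not pass the filter. They are shown because Gm26003 had the largest called genotype difference of the carried RNAs. Coordinates are GRCm38, minus strand, at chr2:158358360-158358472 for Gm26003 and chr2:158359798-158359929 for Gm23925. Sequences run 5′ to 3′ from the GENCODE transcripts with the ACA box near the end in capitals:
Gm26003: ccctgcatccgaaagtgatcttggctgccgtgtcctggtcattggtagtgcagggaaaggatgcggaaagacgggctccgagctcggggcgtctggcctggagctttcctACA
Gm23925: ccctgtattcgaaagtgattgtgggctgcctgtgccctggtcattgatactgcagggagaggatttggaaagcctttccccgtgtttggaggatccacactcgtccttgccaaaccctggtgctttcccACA
They were identical at 92 of 132 aligned positions (69.7%), and Gm23925 matched the untested Gm24411 at 93.9%, so tags could have been split between these copies. Of the transcripts of Snhg17 that span them, Gm26003 is intronic in 4 of 5 and Gm23925 in 4 of 6. RefSeq calls Gm26003 a pseudogene, and the Gm23925 name is shared by 2 overlapping annotated genes.

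Both rose in both genotypes, as their host did. Gm26003 read 5.03, 4.59, 4.84 and 5.10 at 6 h in Ado KO cells, against 3.19, 2.87, 4.30 and 3.49 untreated. Its control values were 6.37, 6.10, 5.79 and 5.65 at 6 h, against 2.51, 1.97, 2.94 and 2.64 untreated. No 6 h library overlapped an untreated one, and the Ado KO libraries at 6 h were all below the control ones. The change was 1.43 ± 0.24 (limma adjusted p = 0.000102) in Ado KO cells and 3.46 ± 0.24 (limma adjusted p = 9.75e-13) in control cells, and the genotype difference was -2.04 ± 0.35 (limma adjusted p = 0.00128). The genotype difference was not called without Ado guide 2 (-1.69) or without control guide 1 (-1.51), with limma adjusted p-values of 1.49e-05 to 0.300 over the alternatives other than single omissions. At 6 h it was lower in Ado KO cells by -1.09 ± 0.26 (limma adjusted p = 0.0293), a call lost without any 1 of Ado KO libraries 1-2, 2-1 and 2-2 or control libraries 1-1 and 1-2. Gm23925 changed by 1.71 ± 0.31 (limma adjusted p = 0.000199) in Ado KO cells and 3.27 ± 0.31 (limma adjusted p = 7.74e-10) in control cells. It was higher in Ado KO cells at 1 h, by 1.29 ± 0.32 (limma adjusted p = 0.0400). Whether that 1 h call held without single libraries or guide populations was not tested.

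Snhg12 holds 3 H/ACA genes (Snora16a, Snora44 and Snora61) and 1 C/D gene (Snord99). Sequences are shown for Snora44, which had a called genotype difference, and for Snord99, which had no call at 6 h. Snora44 lies at chr4:132309941-132310069 and Snord99 at chr4:132310691-132310764, both plus strand in GRCm38. In Snora44 no ACA was found in the last bases and nothing is in capitals, and in Snord99 capitals mark the C box (TGATGA) and the D box (CTGA):
Snora44: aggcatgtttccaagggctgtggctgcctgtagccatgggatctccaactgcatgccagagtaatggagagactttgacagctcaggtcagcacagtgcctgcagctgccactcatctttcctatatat
Snord99: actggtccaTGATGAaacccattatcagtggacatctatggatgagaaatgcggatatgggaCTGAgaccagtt
Snora44 is intronic in 7 of the 9 Snhg12 transcripts that span it, and 5 other annotated genes resemble it at 85% identity or more over at least 50 bases, so some tags may belong elsewhere.

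Snora44 read 5.77, 5.64, 5.53 and 5.25 at 6 h in Ado KO cells, against 4.09, 4.25, 4.69 and 4.67 untreated. Control cells showed 6.37, 6.15, 6.47 and 6.13 at 6 h, against 3.65, 3.94, 3.87 and 3.54 untreated. As for Snhg12, the untreated Ado KO libraries were all above the untreated control libraries, and the order was the opposite at 6 h. The change was 1.12 ± 0.14 (limma adjusted p = 3.56e-07) in Ado KO cells and 2.53 ± 0.14 (limma adjusted p = 1.67e-15) in control cells, with a genotype difference of -1.41 ± 0.19 (limma adjusted p = 0.000138). Without Ado guide 2 that difference was -0.99 (limma adjusted p = 0.148), where the other alternatives except single omissions reached down to 8.99e-06. Between genotypes Snora44 was 0.67 ± 0.14 higher in Ado KO cells untreated (limma adjusted p = 0.0306) and 0.71 ± 0.14 higher at 1 h (limma adjusted p = 0.0106). The untreated and 1 h calls were not rerun with libraries or guide populations left out. At 6 h Snora44 was lower in Ado KO cells, at -0.73 ± 0.14 (limma adjusted p = 0.00590).

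The other RNAs of Snhg12 went separate ways. Snora61 rose by 0.88 ± 0.27 in Ado KO cells (limma adjusted p = 0.0449) and by 1.63 ± 0.27 in control cells (limma adjusted p = 4.34e-05), and the Ado KO call was lost in 6 of 8 single omissions, without any one of the untreated libraries 1-1, 1-2 and 2-1 and the 6 h libraries 1-1, 1-2 and 2-2. Snora16a changed by 0.79 ± 0.66 in Ado KO cells (limma adjusted p = 0.599) and rose by 2.97 ± 0.66 in control cells (limma adjusted p = 0.0018), at low levels. Its name is shared by 2 overlapping annotated genes. Snord99 stayed between -1.76 and 0.36 at 6 h and untreated, with changes of -0.03 ± 0.63 in Ado KO cells and 0.12 ± 0.63 in control cells.

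**Figure D3:**
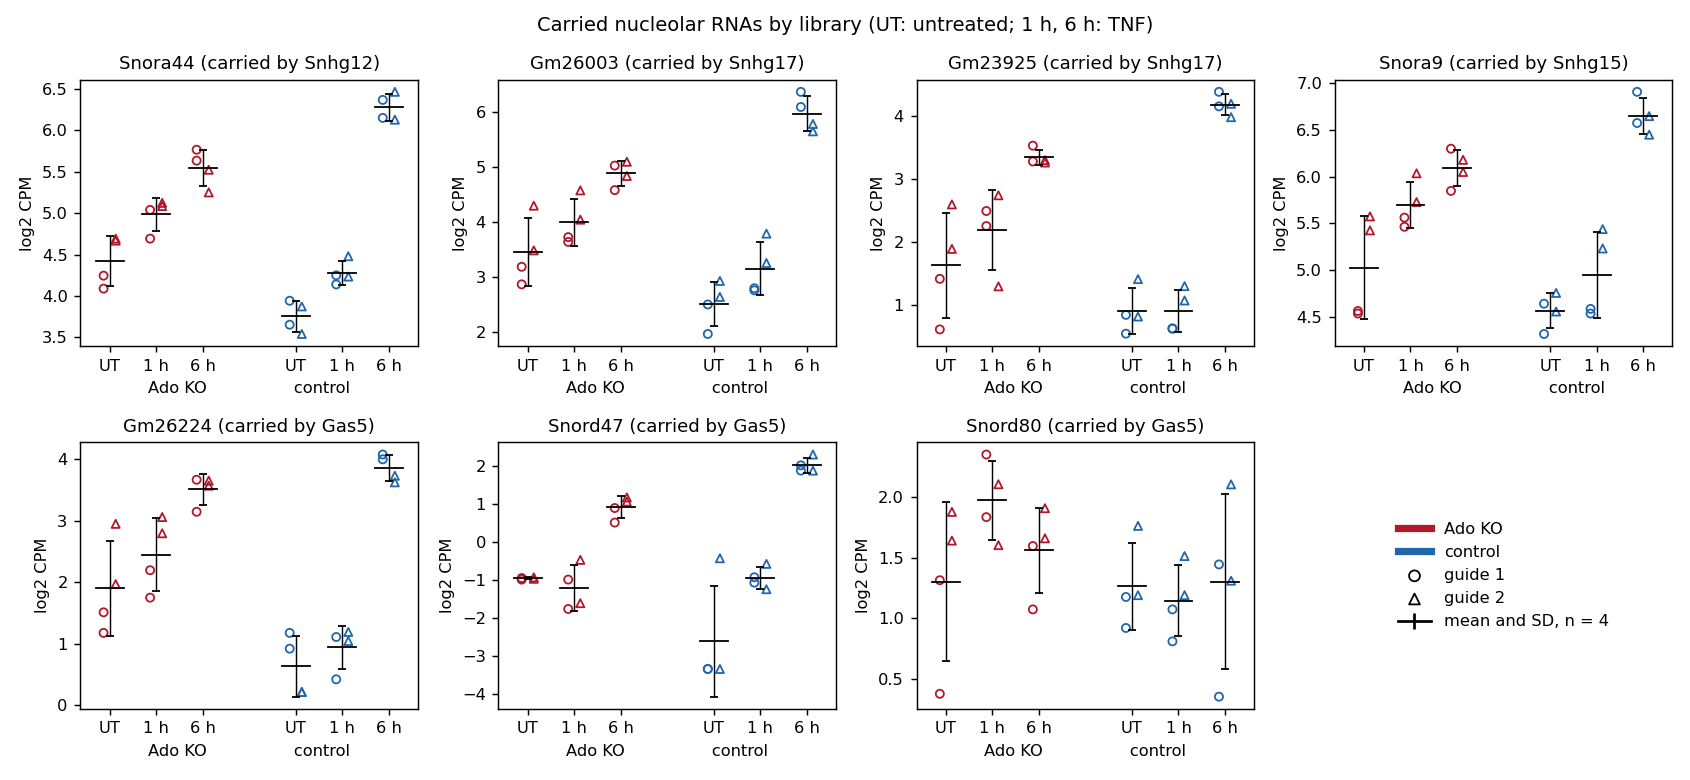
log2 CPM of 7 carried snoRNAs in each library, Ado KO (red) left of control (blue), by treatment; circles are guide 1, triangles guide 2, bars the mean and SD of 4 libraries. Snora44, Snora9 and Gm26003 climb at 6 h in both genotypes and end higher in control cells. The 6 h difference between genotypes was called for Snora44 and Gm26003 and not for Snora9.

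Snhg15 holds Snora9 (chr11:6528033-6528165, minus strand, GRCm38), an H/ACA RNA shown because it was among the genes most like the hosts across libraries, with its ACA box in capitals:
Snora9: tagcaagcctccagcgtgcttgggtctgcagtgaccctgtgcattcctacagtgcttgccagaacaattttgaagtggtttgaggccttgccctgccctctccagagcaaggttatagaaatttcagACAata
It read 6.30, 5.85, 6.18 and 6.05 at 6 h in Ado KO cells, against 4.56, 4.53, 5.57 and 5.43 untreated. Control cells had 6.91, 6.58, 6.65 and 6.45 at 6 h, against 4.32, 4.64, 4.76 and 4.56 untreated. The groups did not overlap in either genotype, and untreated Ado KO libraries of guide 2 were higher than those of guide 1, as for the host. The change was 1.07 ± 0.19 (limma adjusted p = 0.000146) in Ado KO cells and 2.08 ± 0.19 (limma adjusted p = 3.55e-10) in control cells. Neither its 6 h level nor its 6 h change was called different between genotypes.

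Snhg5 holds Snord50a (chr9:88521529-88521600) and Snord50b (chr9:88521797-88521868), both minus strand in GRCm38 and both C/D RNAs. They are shown because they moved further than their host and are nearly the same RNA, with C box and D box in capitals:
Snord50a: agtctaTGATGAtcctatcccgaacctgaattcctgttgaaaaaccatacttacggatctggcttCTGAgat
Snord50b: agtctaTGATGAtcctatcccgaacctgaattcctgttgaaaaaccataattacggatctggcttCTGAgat
They were identical at 71 of 72 positions and resemble 5 further genes, so their values are not independent and may include tags of other copies. Snord50a read 2.14, 1.07, 2.51 and 2.26 at 6 h in Ado KO cells, against -0.95, 0.60, 0.60 and -0.42 untreated, and in control cells 2.97, 2.74, 2.93 and 1.87 at 6 h, against 0.30, -0.44, -1.76 and 0.45 untreated. All 6 h libraries lay above the untreated ones. The change was 2.03 ± 0.46 in Ado KO cells (limma adjusted p = 0.00385) and 2.99 ± 0.46 in control cells (limma adjusted p = 1.55e-05). Snord50b changed by 2.43 ± 0.72 (limma adjusted p = 0.0358) and 4.00 ± 0.72 (limma adjusted p = 0.000145) in the same order. It stood at the lowest value in Ado KO untreated library 2-2 and control untreated library 2-1. The Ado KO call of Snord50b was lost without untreated library 1-1 or 2-2 or 6 h library 1-1, 2-1 or 2-2, at changes of 1.45 to 2.95 over the omissions.

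Gas5 carries the widest range. Of its 8 tested snoRNAs 2 were called higher in Ado KO cells (Gm26224 and Snord47) and 3 in control cells (Gm26224, Gm23212 and Snord47) at 6 h. Among these Snord47 passed the filter only through its 6 h libraries. Of all genes tested 4.42% were called higher at 6 h in Ado KO cells and 7.74% in control cells. Snord47 (chr1:161038082-161038158), Gm26224 (chr1:161035394-161035473) and Snord80 (chr1:161037601-161037681), all plus strand in GRCm38, are shown as the largest changes and as one that did not pass, with C and D boxes in capitals:
Snord47: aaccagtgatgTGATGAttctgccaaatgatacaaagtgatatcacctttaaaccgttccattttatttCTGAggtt
Gm26224: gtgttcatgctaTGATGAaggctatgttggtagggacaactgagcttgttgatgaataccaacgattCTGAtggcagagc
Snord80: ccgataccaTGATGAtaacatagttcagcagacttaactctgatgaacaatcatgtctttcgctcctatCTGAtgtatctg
None of these has an annotated look-alike at 85% identity or more, though the name Snord80 is shared by 2 overlapping annotated genes.

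Snord47 read 0.90, 0.52, 1.07 and 1.18 at 6 h in Ado KO cells, against -0.95, -0.99, -0.97 and -0.93 untreated. In control cells it read 1.89, 2.03, 1.89 and 2.32 at 6 h, against -3.35, -3.35, -3.35 and -0.42 untreated. The groups were fully apart, but 3 untreated control libraries sat at the lowest value, so the size of the control change of 4.65 ± 0.54 (limma adjusted p = 6.47e-08) depends on that value. In Ado KO cells the change was 1.88 ± 0.54 (limma adjusted p = 0.0273), and this call was lost in 7 of 8 single omissions, all but that of 6 h library 1-2. Gm26224 read 3.67, 3.14, 3.65 and 3.57 at 6 h in Ado KO cells, against 1.51, 1.18, 2.95 and 1.97 untreated, and in control cells 4.00, 4.08, 3.73 and 3.62 at 6 h, against 0.92, 1.18, 0.21 and 0.21 untreated. It changed by 1.61 ± 0.30 (limma adjusted p = 0.000336) in Ado KO cells and 3.23 ± 0.30 (limma adjusted p = 6.13e-10) in control cells. At 1 h it was 1.51 ± 0.31 higher in Ado KO than in control cells (limma adjusted p = 0.0122). So were Gm23212 at 1.40 ± 0.25 (limma adjusted p = 0.00271) and Gm25789 at 1.02 ± 0.26 (limma adjusted p = 0.0436). These 1 h calls were not rerun with libraries or guide populations left out. Gm23212 also rose at 6 h in control cells, by 1.10 ± 0.23 (limma adjusted p = 0.0011). Snord80 changed by 0.26 ± 0.33 in Ado KO cells and 0.04 ± 0.33 in control cells, and its neighbours Gm22489, Gm22357, Mir5117 (annotated as a snoRNA) and Gm25789 also had no call at 6 h.

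The remaining hosts had smaller or partial changes. Snord87, the single C/D RNA of Snhg6, rose by 0.80 ± 0.22 in Ado KO cells (limma adjusted p = 0.0221) and by 1.48 ± 0.22 in control cells (limma adjusted p = 8.11e-06), with none of the low single libraries of its host: its 1 h values were 2.19 to 2.91 in Ado KO cells and 1.92 to 2.70 in control cells. The Ado KO call of Snord87 was lost without untreated library 1-1 or 1-2 or 6 h library 1-1 or 2-1. The Snora73a and Snora73b RNAs of Snhg3, which act in cleavage of the ribosomal RNA precursor, changed by 0.35 ± 0.19 and 0.13 ± 0.13 in Ado KO cells, neither called. In control cells they rose by 0.84 ± 0.19 (limma adjusted p = 0.00182) and 0.36 ± 0.13 (limma adjusted p = 0.0460), the Snora73b call being lost in 6 of 8 single omissions, all but those of untreated library 2-2 and 6 h library 1-2. Of the 7 tested RNAs of Snhg1, limma called 0 in Ado KO cells (1 at an unadjusted p under 0.05) and 4 in control cells (Gm25855, Gm24453, Gm22680 and Gm23246, at 1.55 to 2.95). Of these calls only that of Gm23246 held in all single omissions. The shares of all genes tested called higher at 6 h were 4.42% in Ado KO cells and 7.74% in control cells. One more Snhg1 RNA, Gm24452, was 1.10 ± 0.21 higher in Ado KO than in control cells at 1 h (limma adjusted p = 0.00815), a call not rerun with libraries left out. The RNA of Snhg8, Snora24, changed by 0.23 ± 0.22 in Ado KO cells and rose by 0.73 ± 0.22 in control cells (limma adjusted p = 0.0225), a call lost without untreated library 1-1 or 2-2 or 6 h library 1-1 or 2-1.

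**Figure D4:**
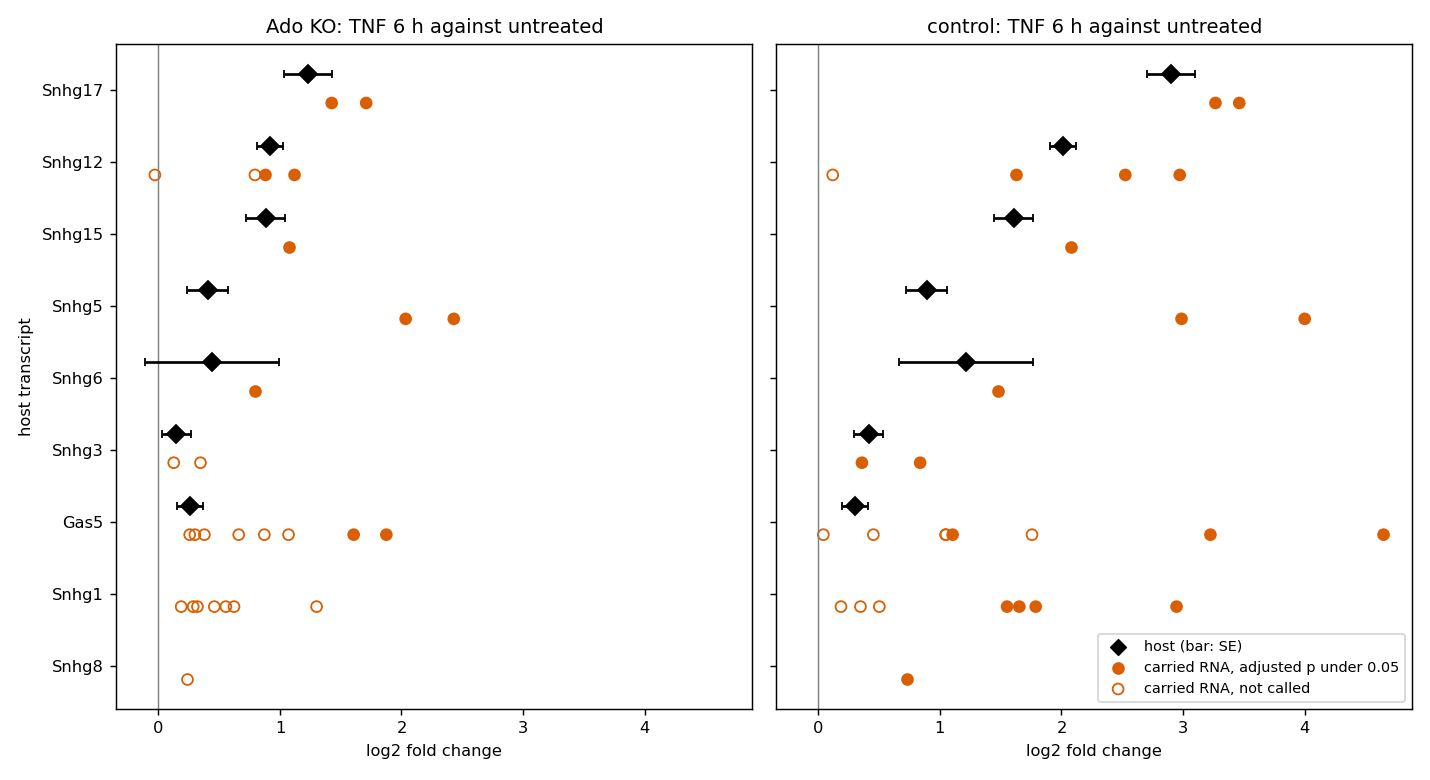
Log2 change at 6 h of TNF against untreated for each host (diamond, bar is SE) and each of its tested snoRNAs (circles, filled where the adjusted p is under 0.05), Ado KO left and control right; Snhg1 and Snhg8 have snoRNA points only. The snoRNAs of Snhg12 lie on both sides of their host, while those of Snhg5 and all of Gas5 but Snord80 lie above theirs.

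A direct comparison within libraries took the mean of a host's tested snoRNAs minus the host itself and asked whether it changed at 6 h, over 14 pairs of host and genotype. With 4 libraries against 4, the exact two-sided permutation test cannot give a p below 0.0286. It shuffled the libraries of a genotype freely and took no account of guide population. That smallest p was reached in 6 of the 14 pairs, and in all 6 the snoRNAs gained on their host, but after Benjamini-Hochberg adjustment over the 14 pairs these had 0.0667 and 0 passed. The 2 Ado KO pairs were Snhg17 (a gain of 0.33) and Gas5 (0.62). Snhg5 and Snhg15 in Ado KO cells gained 1.83 and 0.19, each with an exact permutation p of 0.0571. In control cells the 4 pairs were Snhg5 (2.60), Gas5 (1.37), Snhg15 (0.47) and Snhg17 (0.47). Snord50b of Snhg5 stood at the lowest value in Ado KO untreated library 2-2 and control untreated library 2-1. The size of the Snhg5 gains depends on that value. Without Ado KO untreated library 2-2 the Ado KO gain of Snhg5 was 1.25. For Snhg15 in control cells, the RNA minus host value was -0.28 to -0.20 at 6 h and -0.74 to -0.68 untreated. Taking the median over the 8 Gas5 snoRNAs in place of the mean, the Ado KO gain was 0.14 (exact permutation p = 0.857) and the control gain 0.86 (exact permutation p = 0.0286). Without Snord47 and Gm22489, which needed 6 h libraries to pass the filter, the mean Gas5 gain was 0.42 in Ado KO cells (exact permutation p = 0.114) and 0.85 in control cells (exact permutation p = 0.0286), and 5 of the 14 pairs reached the smallest p. For Snhg12 the snoRNA mean changed by -0.23 relative to the host in Ado KO cells (exact permutation p = 0.143) and by -0.20 in control cells (exact permutation p = 0.257), neither past 0.05. Without Snora16a and Snord99 these values were 0.08 in Ado KO cells and 0.07 in control cells (exact permutation p = 0.600 each). For Snhg3 the values were 0.09 and 0.18 (exact permutation p = 0.286 each), and for Snhg6 0.36 and 0.27 (exact permutation p = 0.314 and 0.486), in Ado KO cells first.

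Across the 24 libraries, which share treatments and normalisation, Snhg12, Snhg15 and Snhg17 moved together, with Pearson r of 0.97 between Snhg12 and Snhg17, 0.96 between Snhg15 and Snhg17 and 0.95 between Snhg12 and Snhg15. Gas5 reached 0.56 to 0.74 with the hosts other than Snhg6 and 0.20 with Snhg6. Among 6711 named genes with a mean of at least 3 log2 CPM, those closest to the hosts' mean were Ptgs2, the inducible prostaglandin synthase (r = 0.94), and Snord55, Snora20, Snora9 and Snora44 (r = 0.92 each). Ptgs2 changed by 1.01 at 6 h in Ado KO cells and by 1.67 in control cells.

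Other non-coding hosts were described for comparison, 9 with a test, among them Mir17hg, which is named as a microRNA host gene. Beside them, 4.42% of all genes tested were called higher at 6 h in Ado KO cells and 7.74% in control cells. In Ado KO cells 3 rose at 6 h: Snhg4 (0.75 ± 0.10, limma adjusted p = 7.38e-07), Snhg20 (0.78 ± 0.11, limma adjusted p = 8.56e-06) and Dancr (0.65 ± 0.15, limma adjusted p = 0.00472). In control cells 5 rose and 1 fell. The rises were Snhg4 (1.71 ± 0.10, limma adjusted p = 3.02e-15), Snhg20 (1.36 ± 0.11, limma adjusted p = 6.22e-11), Dancr (1.38 ± 0.15, limma adjusted p = 2.44e-08), Snhg7 (0.75 ± 0.18, limma adjusted p = 0.00419) and Zfas1 at 0.35. Snhg18 fell by 0.44 in control cells. Snhg4 also had a called genotype difference at 6 h, of -0.96 ± 0.14 (limma adjusted p = 0.000143), and was the 1 host of these 9 that was called lower in Ado KO cells at 6 h (-0.80 ± 0.10, limma adjusted p = 2.84e-05).

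The 58 tested protein-coding snoRNA hosts had 3 rises and 0 falls at 6 h in Ado KO cells, with a median change of -0.02. In control cells they had 9 rises and 11 falls, with a median change of -0.05. Over all 13272 genes 587 rose (4.42%) and 268 fell in Ado KO cells, and 1027 rose (7.74%) and 1365 fell in control cells. The share of rises in Ado KO cells was thus near that of all genes. The called genes of smallest adjusted p in Ado KO cells were Ppan (0.41), Wdr43 (0.33), both needed for ribosome assembly, and Rcc1 (0.24), the gene around Snhg3. In control cells they were Ppan (0.59), Wdr43 (0.63) and the translation factors Eif4a2 (0.85) and Eif4a1 (0.29). Eif4a2 was 0.75 lower on the log2 scale in Ado KO than in control cells at 6 h (-0.75 ± 0.13, limma adjusted p = 0.00198), and Tnpo2, an import receptor, was higher (0.47 ± 0.12, limma adjusted p = 0.0412).

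Genes that make, protect or remove these RNAs were counted as lists, beside 1027 higher and 1365 lower of the 13272 genes in control cells at 6 h, and 587 higher and 268 lower in Ado KO cells. Of 14 box C/D proteins limma called 0 in Ado KO cells (3 at an unadjusted p under 0.05), and 3 rose in control cells at 6 h, the core proteins Nop58 (0.61) and Nop56 (0.41) and the assembly factor Znhit6 (0.36). Of 6 box H/ACA proteins 0 were called in Ado KO cells (0 unadjusted) and 1, the pseudouridine synthase Dkc1 (0.55), rose in control cells. Of 24 intron turnover and trimming genes 0 were called in Ado KO cells (1 unadjusted) and 1, the exosome helicase Skiv2l2 (0.42), rose in control cells. Of 19 nonsense-mediated decay factors 0 were called in Ado KO cells (1 unadjusted), and in control cells Magoh rose (0.30) while Upf1 (-0.27), Casc3 (-0.23) and Smg9 (-0.31) fell. Of 19 genes of terminal oligopyrimidine control the translation repressor Eif4ebp1 fell in Ado KO cells (-0.34), and it (-0.32) and Mlst8 (-0.38) fell in control cells. Of 27 RNA polymerase I and ribosome biogenesis genes Rrs1 rose in Ado KO cells (0.44). In control cells Rrs1 (0.61), Ncl (0.50) and Myc (0.85) rose and Rrn3 (-0.24), an initiation factor of RNA polymerase I, fell. Over these 6 lists 0 genes had a genotype difference called by limma at 6 h, a share near the 0.347% of all genes tested. Each list had at most 3 at an unadjusted limma p under 0.05. For unadjusted counts at 6 h, here and above, the share of all genes was not computed.

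Start regions were looked at because several hosts moved together. RefSeq promoter windows (GRCm38.p6) were given for 8 of the 9 hosts, and a pyrimidine tract was searched on the transcribed strand, as a C followed by at least 4 of C or T within 10 bases of the start. It was found for Snhg3, Snhg5, Snhg8, Snhg12 and 1 of 2 Gas5 starts, and not in the windows of Snhg1, Snhg15 and Snhg17. Of all 32851 windows 27.9% hold such a tract. The letters TATAA, sought on the transcribed strand, stood in the 50 bases before the start of Snhg5, Snhg8 and Snhg12, and in 4.9% of all windows. The windows of the 3 hosts that were called in both genotypes are printed, the first of 2 for Snhg17, 30 bases either side of the start, with the tract in capitals where there is one (chr4:132308648-132308707, plus strand; chr11:6528731-6528790, minus strand; chr2:158361493-158361552, minus strand):
Snhg12: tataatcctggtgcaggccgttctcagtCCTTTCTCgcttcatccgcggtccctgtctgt
Snhg15: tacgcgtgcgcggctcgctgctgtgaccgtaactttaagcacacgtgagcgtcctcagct
Snhg17: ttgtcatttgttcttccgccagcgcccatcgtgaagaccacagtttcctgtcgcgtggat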

How the data were processed

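The deposited table holds log2 CPM values for each gene in 24 libraries, which the authors had normalised. The unit was inferred: unlogged values summed to 998900 to 999014 in every library, and all libraries shared a lowest value (-3.35) and a highest value (17.0), as after quantile normalisation. Library depth was not stated, so no counting interval is given. The tools cutadapt 1.7, HISAT2, Subread with featureCounts, limma and FastQC are listed in the submitters' processing notes without roles, with the builds GRCm38 and mm10; strand settings were not given in the sources used here. For control guide 2 at 1 h, titles and column names give opposite replicate numbers; columns were joined through the sample descriptions and numbers follow the titles.

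Genes at or above 0 in at least 4 libraries (13272) were fitted with limma 3.58.1 (R 4.3.3, statmod 1.5.0): 6 group means, guide population (4) as a random block (correlation 0.0485), a variance trend, two-sided tests and Benjamini-Hochberg adjustment over all genes. Errors of changes are limma standard errors. The fit was tested on simulated data. snoRNAs minus host were compared with exact permutation tests (scipy 1.17.1), which took no account of guide population. GENCODE M21 gave positions and biotypes: 15217 symbols matched 1 gene, 41 several and 132 none. Similar genes were sought with blastn 2.17.0, and Python 3.11.15 with matplotlib 3.10.9 made the figures.

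The text names all hosts and their carried snoRNAs, up to 4 called genes of smallest adjusted p per list and 6 h comparison, and the 5 named genes most like the hosts. Genes named beyond these rules (Zfas1, Snhg18) were chosen after their values were seen. The hosts and lists were chosen with earlier results of these data known. Alternatives covered filters, a pseudocount, scaling, the block, the variance trend, single libraries and guide populations. For carried snoRNAs they were run only at 6 h: against untreated, between genotypes and for the genotype difference.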

Additional observations from a re-analysis of the deposited data

Results flagged for a closer look

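Groups of 4 libraries were screened for a library far from the other 3 (by Dixon's criterion), over 42 groups of the 7 hosts, and chance alone does this in about 1 in 20 groups. Control library 1-2 at 1 h met it for 2 hosts: Snhg6 read 2.47 there, against 4.63, 4.60 and 4.40 in the other libraries, and Gas5 read 8.10, against 7.90, 7.89 and 7.92. The changes of 4 RNAs at 6 h differed between genotypes by limma's interaction test, with the smaller rise in Ado KO cells: -1.09 for Snhg12, -1.67 for Snhg17, -1.41 for Snora44 and -2.04 for Gm26003 on the log2 scale.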

How the results depend on the processing

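Counts of called hosts that moved to or from 0, or by more than 1.5 times, are listed here with some smaller moves. For Ado KO against control, untreated, the count of 1 became 0 with medians centred again, with values quantile normalised again without small RNA, histone and mitochondrial genes, without a variance trend, without Ado guide 2 and without control guide 1, and 2 with guide populations as fixed terms or without Ado guide 1. At 1 h it became 3 with fixed guide terms or without control guide 2 and 0 without control guide 1. At 6 h the count of 2 became 1 without a trend, without Ado guide 1 or without control guide 1, 0 without Ado guide 2 and 3 with fixed guide terms. For TNF 1 h in Ado KO cells it became 1 with fixed guide terms. Without Ado guide 1 it was 1 for TNF 6 h against untreated and 0 for TNF 6 h against TNF 1 h in Ado KO cells. With fixed guide terms each of these counts of 3 was 4. For the 6 h genotype difference it was 0 without Ado guide 2, 1 without control guide 1 and 3 with fixed guide terms. Counts of carried snoRNAs at 6 h became 1 in Ado KO cells without Ado guide 1 and 12 in control cells without control guide 1; lower in Ado KO than in control cells, 1 without a trend, Ado guide 1 or control guide 1 and 0 without Ado guide 2; for the genotype difference, 4 with fixed guide terms, 5 without Ado guide 1, 0 without Ado guide 2 and 1 without control guide 1. Against untreated at 6 h, carried snoRNAs also gave 7 in Ado KO cells without Ado guide 2 and 15 in control cells without control guide 2. The cause of these moves was not tested. Leaving out single libraries gave, for hosts, 0 to 1 (untreated), 1 to 3 (1 h) and 1 to 2 (6 h) between genotypes, 3 to 4 in Ado KO and 4 to 6 in control cells at 6 h; for carried snoRNAs it gave 6 to 9 in Ado KO and 14 to 18 in control cells, 1 to 2 between genotypes and 2 to 4 for the genotype difference. The replicate numbers did not pair the libraries (correlations of same-numbered deviations -0.158 to 0.054 over 12 values); with guide and number as a replicate block (correlation 0.0231) the Gas5 call in control cells was lost (limma adjusted p = 0.0551) and no count of hosts left 1.5 times the reported one. No result changed sign past the threshold. Leaving out the 4 carried snoRNAs that needed 6 h libraries to pass the filter, chosen after seeing the data, gave 9 calls in Ado KO and 17 in control cells. Small RNA genes had no value under the normalisation without them. Rows at the lowest value limit the changes of low snoRNAs.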
